A study of Mus musculus with 4 samples.

Results

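The genes for the proteins of the cytosolic ribosome were followed through early molar development in the mouse. Members were all non-control probes whose gene name on the array is that of a large subunit protein (Rpl, Rplp) or a small subunit protein (Rps, Rpsa) or of a close numbered variant. The rule took 134 of 41174 probes, which stand for 80 genes of 17398 measured genes, with 48 in the large and 32 in the small subunit. All 80 genes were measured, through 129 probes. The other 5 probes, 1 each of Rpl22l1, Rpl35a, Rps19, Rps2 and Rps6, were too dim to count, and each of those genes was read from another probe. Each of 4 arrays with 2 colours compared the Cy5-labelled RNA of 1 stage, embryonic day 11, 12, 16 or 18 (E11, E12, E16, E18), with Cy3-labelled RNA of E14. All RNA came from pooled whole first molar germs of the lower jaw of C57BL/6 embryos, with no mutation or treatment named. The labels do not say how many germs were pooled, nor whether all 4 arrays used a single E14 extract. A whole germ holds epithelium, mesenchyme and blood, and in such bulk samples fewer cells of a type and less RNA per cell cannot be told apart.

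Each ribosome carries 1 copy of nearly all of its proteins, and cells make the large and small subunit proteins in closely matched amounts. Mammalian mRNAs for these proteins begin with a C followed by a run of pyrimidines, the TOP motif, through which the growth-sensing kinase mTOR and the RNA-binding protein LARP1 control their translation. Their transcripts are among the most abundant of a growing cell, and because their translation is regulated, mRNA levels alone do not give the rate at which ribosomes are made.

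The starts of 8 genes to which the results below return are shown first, with 30 bases before and 15 bases from the annotated start on (RefSeq, build GRCm38.p6, the gene's own strand, 5′ to 3′). Capitals mark a run of at least 6 bases that begins with C, holds only C and T, and starts within 5 bases of the annotated start on either side.
Rps15a, chr7:118116133-118116177, minus strand: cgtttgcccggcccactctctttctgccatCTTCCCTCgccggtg
Rps27, chr3:90213634-90213678, minus strand: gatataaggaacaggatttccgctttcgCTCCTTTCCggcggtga
Rpl38, chr11:114668550-114668594, plus strand: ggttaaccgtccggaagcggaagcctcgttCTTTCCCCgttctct
Rpl22l1, chr3:28805478-28805522, plus strand: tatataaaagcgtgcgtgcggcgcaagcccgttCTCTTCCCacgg
Rpl39, chrX:37085208-37085252, minus strand: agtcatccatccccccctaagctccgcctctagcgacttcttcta
Rpl5, chr5:107900498-107900542, plus strand: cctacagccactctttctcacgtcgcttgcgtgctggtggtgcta
Rpl9, chr5:65391417-65391461, minus strand: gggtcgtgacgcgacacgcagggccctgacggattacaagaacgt
Rps7, chr12:28635939-28635983, minus strand: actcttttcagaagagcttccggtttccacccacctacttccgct
Rps15a, Rps27, Rpl38 and Rpl22l1 hold such a run at the start used here, and Rpl39, Rpl5, Rpl9 and Rps7 do not. Runs farther than 5 bases from the annotated start were not counted, so a gene without a mark may hold one nearby.

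Of the 80 genes, 60 matched the RefSeq start table. A run of this kind was found in 25 of the 60 (41.7%), against 2053 of 17492 protein-coding genes (11.7%), with 14 of 36 large and 11 of 24 small subunit genes among them. Over the whole 300 bases of a window, CCGGAAG on either strand, the core of sites bound by ETS family factors, was present in 24 of 60 members (40.0%), against 12.9% of protein-coding genes. TATAAA on either strand was present in 7 members (11.7%), against 14.8%. These shares describe letters only. The median of the later pair of stages (E16, E18) minus the earlier pair (E11, E12) was 0.29 (log2) for the 25 genes with it and 0.26 for the 35 without. At E11 itself the medians over E14 were -0.18 with the run and 0.03 without it, and no test was made.

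Ribosomal protein genes stood close to E14 at the earlier stages and a little above it at the later ones. At E11 and E12 the median log2 ratio of the 80 genes over E14 was -0.08 and -0.02, and at E16 and E18 it was 0.22 and 0.23. Over all measured genes the 4 medians were -0.02, 0.00, 0.01 and -0.01. The E11 ratios of the members ran from -0.55 to 0.59, the E12 ratios from -0.55 to 0.55, the E16 ratios from -0.51 to 1.02 and the E18 ratios from -1.21 to 0.80. The SD over member genes was 0.28, 0.22, 0.24 and 0.35 in that order, against 0.55, 0.41, 0.44 and 0.57 over all genes. Ratios were above 0 for 36 of 80 genes on the E11 array, 32 on the E12, 72 on the E16 and 59 on the E18 array. Over all genes the shares above 0 were 47.9%, 49.5%, 50.8% and 48.6%. Each stage is 1 pool on 1 array, so the ratios carry no replicate error and no test was made on any single array.

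**Figure D1:**
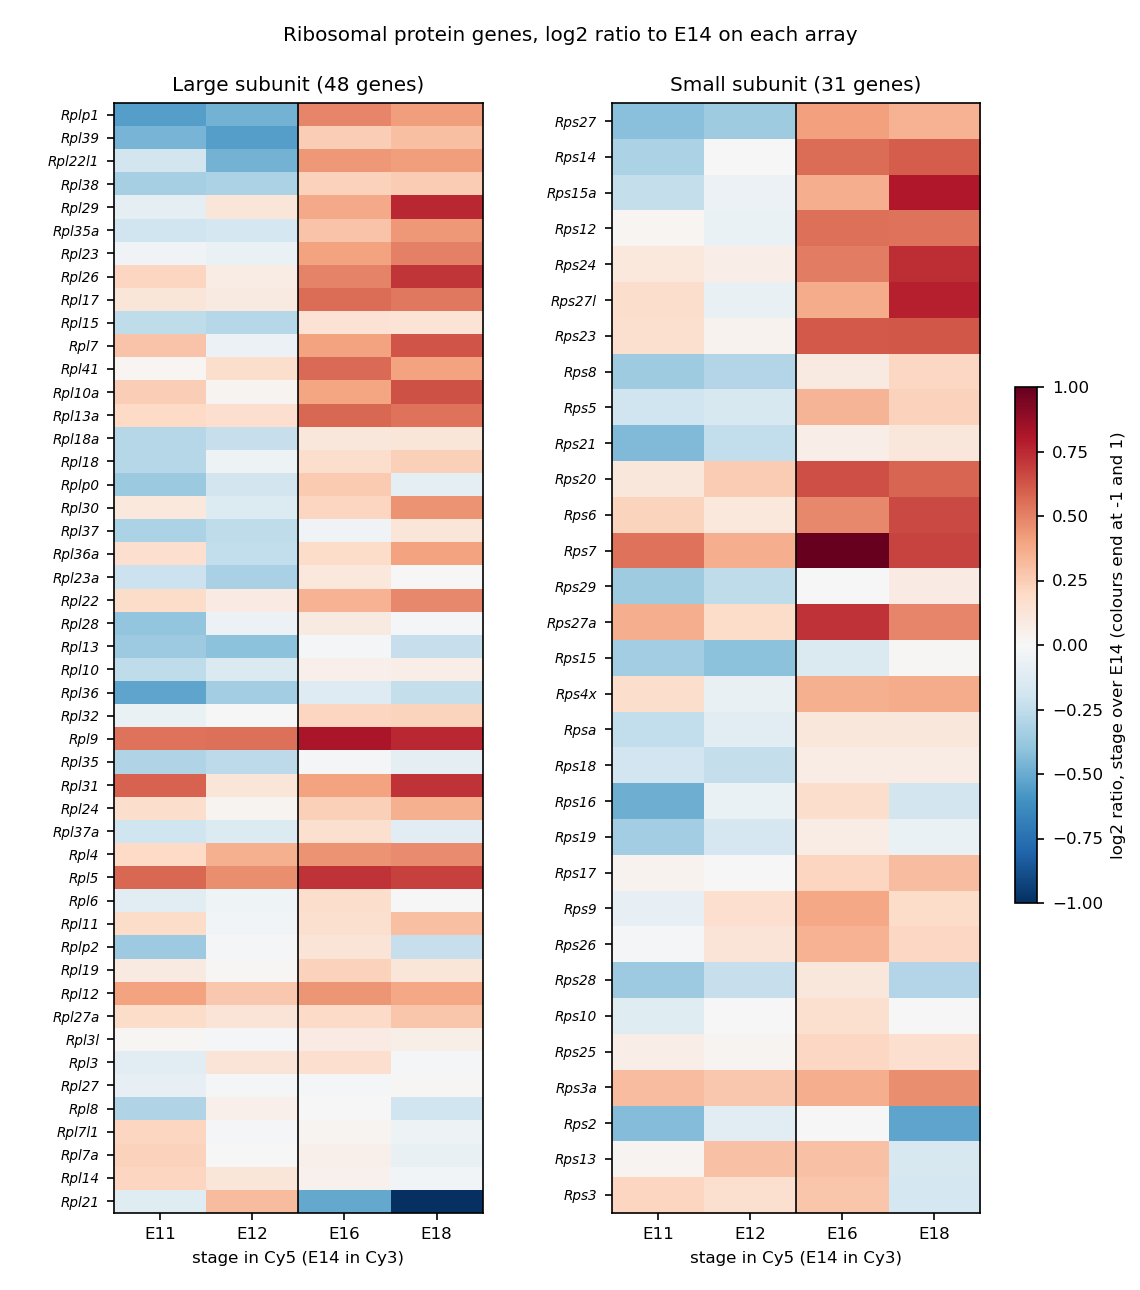
Log2 ratio over E14 (Cy5 over Cy3) of the 48 large and 31 of the 32 small subunit genes at E11, E12, E16 and E18, ordered by the mean of E16 and E18 minus the mean of E11 and E12; the line marks the change of slide. Red cells dominate the 2 columns of E16 and E18, where 72 and 59 of the 80 genes were above E14 (50.8% and 48.6% of all genes). The lowest cell is Rpl21 at E18.

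A difference of at least 0.32 (log2) was counted as higher or lower. By this rule 6 members were higher than E14 at E11 (19.3% of all genes were) and 17 lower (22.4% of all genes). At E12, 4 members were higher (all genes 11.2%) and 8 lower (16.5%). At E16, 32 members were higher, 16 of each subunit, where 18.6% of all genes were, and 1 was lower, where 16.4% were. At E18, 33 members were higher (all genes 22.1%) and 3 lower (22.0%). Changes of 2-fold either way were nearly absent: 0 members at E11 (6.47% of all genes), 0 at E12 (2.96%), 1 at E16 (Rps7, 3.70%) and 1 at E18 (Rpl21, 7.66%).

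After loess, the step in the members lay between E12 and E16. The median of E12 over E11 was 0.01, of E16 over E12 0.27, of E18 over E16 -0.02 and of E18 over E11 0.28. At 0.32 (log2), E12 over E11 counted 6 members higher (12.1% of all genes) and 3 lower (11.7%). E16 over E12 counted 34 higher (21.7%) and 1 lower (16.2%), and the value was above 0 in 76 of 80 genes (50.8% of all genes). E18 over E16 counted 3 higher (8.50%) and 10 lower (10.5%), 7 of these 10 in the small subunit. E18 over E11 counted 34 higher (21.7%) and 2 lower (19.3%). Both later arrays were above both earlier ones in 63 members, where 30.8% of all genes were, and below both in 2, where 30.7% of all genes were. With median centring in place of loess the median was -0.00057 for E16 over E12 and -0.31 for E18 over E11. Both later arrays were then above both earlier ones in 8 members, where 18.9% of all genes were. They were below both in 25 members, for which no share over all genes was computed. The step also coincides with a change of slide, since E11 and E12 were hybridised on 1 slide and E16 and E18 on another, so slide and stage cannot be told apart. These contrasts between stages share E14 RNA as the common channel, and the labels do not say whether it was a single extract.

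The medians of large and small subunit genes differed by at most 0.11 at any stage, with no test. Large subunit medians over E14 were -0.07, -0.02, 0.20 and 0.25 at E11, E12, E16 and E18. Small subunit medians were -0.10, -0.03, 0.32 and 0.21. The difference, large minus small, was 0.03, 0.01, -0.11 and 0.04. For scale, the SD of a member's E14 level over the 4 hybridisations had a median of 0.10, and the difference at E16 was 0.01 when a gene's probes were averaged in place of taking the brightest. The median E18 over E11 was 0.27 in the large and 0.29 in the small subunit.

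**Figure D2:**
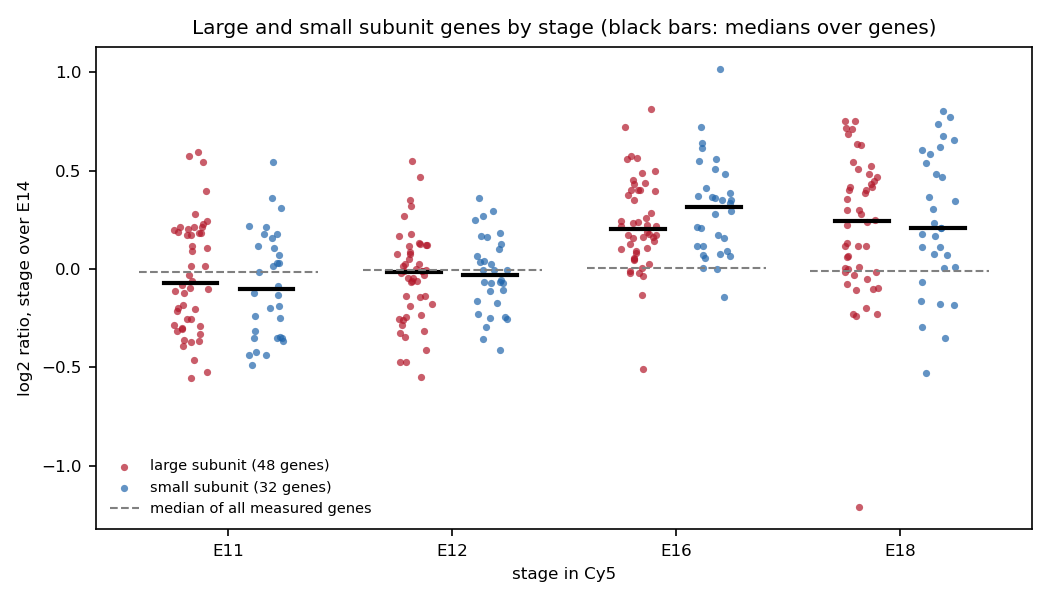
Log2 ratio over E14 of each ribosomal protein gene, large subunit (red, 48 genes) left of small subunit (blue, 32 genes) at each stage; black bars are medians over genes and grey dashed lines the median of all 17398 measured genes. Both clouds sit around 0 at E11 and E12 and mostly above it at E16 and E18, with medians of 0.20 and 0.32 at E16 and 0.25 and 0.21 at E18.

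A linear trend over embryonic day, fitted with limma to all 17398 genes with Benjamini-Hochberg adjustment, called 4 of 80 members as rising, where 6.25% of all genes were, and 0 as falling, where 2.64% were. The members' share is near that of the genome. Rps15a rose by 0.139 ± 0.027 (log2 per day, slope ± SE, adjusted p = 0.0311), Rplp1 by 0.161 ± 0.033 (adjusted p = 0.0365), Rps14 by 0.131 ± 0.029 (adjusted p = 0.0460) and Rpl39 by 0.131 ± 0.030 (adjusted p = 0.0479). The slope was above 0 in 72 of 80 members (48.5% of all genes) and had a median of 0.047, against -0.002 over all genes. An unadjusted p under 0.05 was found in 25 members, 24 of them with a positive slope, and in 27.7% of all genes. The trend has 2 residual degrees of freedom. Leaving out the E11 or the E12 array gave 0 rising members, where 141 and 258 of all 17398 genes were called rising. Leaving out E16 gave 5 (1630 of all genes) and 1 falling, Rpl21 (756 of all genes). Leaving out E18 gave 3 rising (1535 of all genes). With slide as a block the trend called 0 of all genes (575 at an unadjusted p under 0.05), with 36 of 80 member slopes above 0. That fit, like those with 1 array left out, has 1 residual degree of freedom. Its 0 calls therefore cannot tell slide from stage.

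Of the 4 genes that rose, Rps15a, a small subunit protein that binds 18S rRNA, had log2 ratios over E14 of -0.24, -0.06, 0.36 and 0.80 at E11, E12, E16 and E18. Both later arrays were above both earlier ones, and E18 over E11 was 2.06-fold. A second Rps15a probe, with a mean signal of 50.6, had the opposite sign on all 4 arrays (0.12, 0.11, -0.04 and -0.10), and with the mean over probes the slope was 0.052 and no longer passed the test. Rplp1, an acidic protein of the stalk that recruits translation factors, had -0.55, -0.47, 0.49 and 0.42. Its values fall into an earlier and a later pair with little difference within a pair. Rps14, a small subunit protein whose human gene is lost in the 5q- syndrome, had -0.32, 0.00, 0.56 and 0.60. Rpl39, a short protein at the lower exit tunnel, had -0.46, -0.55, 0.25 and 0.30. Both genes were below or at E14 at the earlier stages and above it at the later ones.

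Rps27, Rpl21 and Rpl29 came next to the threshold. Rps27, a zinc-finger protein of the small subunit, had -0.42, -0.36, 0.41 and 0.34 (adjusted p = 0.0553). Rpl29, a large subunit protein, had -0.10, 0.12, 0.38 and 0.75 (adjusted p = 0.0613). With the probe used it increased at each step. Its 4 probes lay between 0.71 and 0.93 at E18 and between -0.10 and 0.29 at E11. The dimmest of them went from 0.29 at E11 to 0.18 at E12. Rpl21 is treated with its probes below.

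Between the slides the members' Cy5 levels rose and their E14 levels fell, the latter by somewhat more than those of other genes. Loess changes the ratio and not the mean signal, so each channel level takes up part of its correction. After loess and scaling of channel levels between arrays (Aquantile), the Cy5 level of the later pair minus the earlier pair had a median of 0.21 over the members. It was higher in 69 of 80, where 46.1% of all genes were. The same difference in the E14 channel, where the stage was the same on every array, had a median of -0.07. It was lower in 63 of 80, where 66.9% of all genes were. Among 141 other genes of a mean log2 signal of 14 or more these medians were -0.02 in Cy5 and -0.05 in E14, and among all genes -0.03 and -0.03. Of these 141 genes, 45.4% were higher in Cy5 and 63.1% lower in E14. The 4 genes that rose were also lower in the E14 channel of the later slide, as 66.9% of all genes were. Each fell further there than the all-gene median of -0.03. Their ratio is the Cy5 level minus the E14 level, so the fall in E14 is not separate from their rise. The difference for Rplp1 was 0.29 in Cy5 and -0.68 in E14, with an SD of 0.42 over the 4 E14 measurements, the highest of any member. For Rps15a the values were 0.40 in Cy5 and -0.33 in E14, for Rps14 0.54 and -0.20, and for Rpl39 0.51 and -0.27. Rpl29 differed from them, with 0.55 in Cy5 and 0.00 in E14, and an E14 SD of 0.025.

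**Figure D3:**
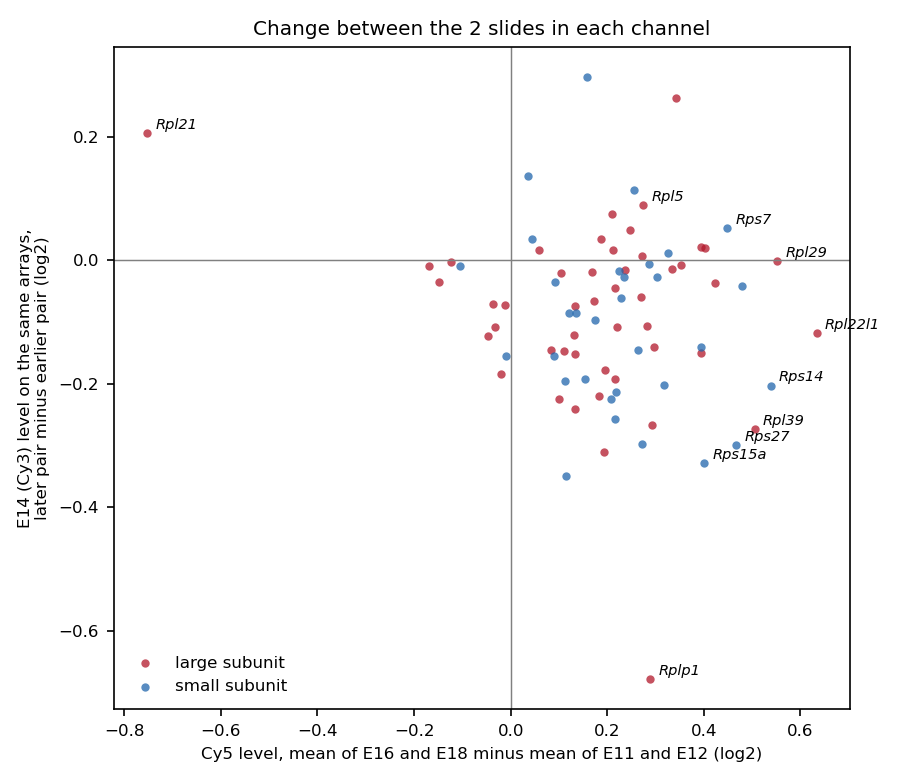
Change between the 2 slides for each member: mean Cy5 level of E16 and E18 minus that of E11 and E12 (horizontal, log2) against the same difference of the E14 level on those arrays (vertical, log2), large subunit in red and small subunit in blue. Rplp1 lies lowest, at -0.68 in E14, Rpl29 lies at 0.00 in E14 with 0.55 in Cy5, and Rpl21 alone lies far to the left, at -0.75 in Cy5.

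Most ribosomal protein probes were bright. The median of their mean signals was 40213, against 214 over all genes. They made up 62 of the 203 genes with a mean log2 signal of 14 or more (30.5%), 40 of 86 at 15 or more (46.5%) and 13 of 25 at 16 or more (52.0%). Before loess, bright genes had higher ratios than dim ones on every array. Among other genes, those at a log2 signal of 5 to 8 had median ratios of 0.30, 0.53, 0.46 and 0.11 at E11, E12, E16 and E18, and those at 14 to 15 had 1.78, 1.93, 1.67 and 1.02. At 16 to 18 the 12 other genes had 2.05, 2.45, 1.46 and 1.06, so that at E16 the ratio was lower again at the top. The members at 14 to 15 had 1.69, 1.91, 1.85 and 1.34, so most of a member's scanned ratio was shared with other genes of its brightness. No member spot was saturated or flagged as an outlier.

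**Figure D4:**
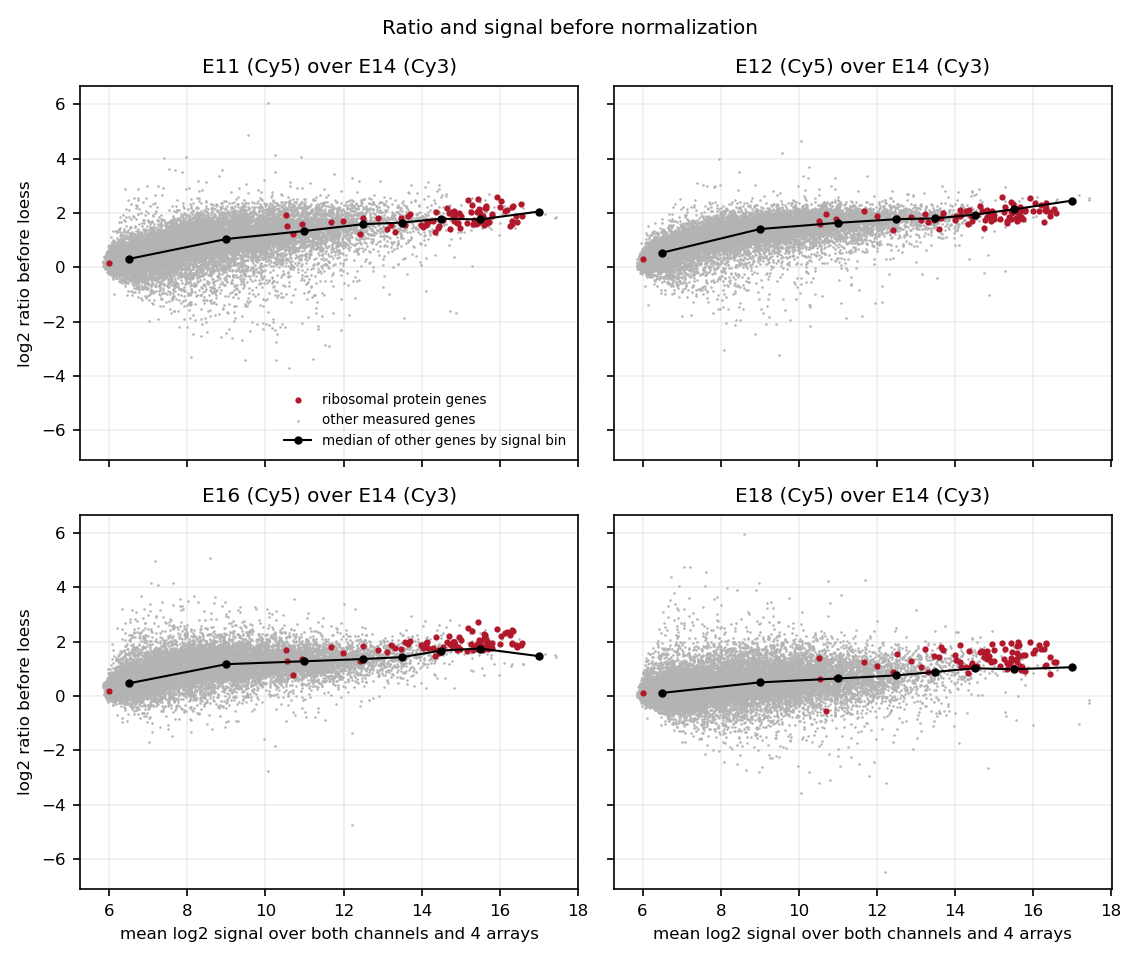
Log2 ratio before loess against mean log2 signal for each array, with ribosomal protein genes in red, other measured genes in grey and the median of the other genes per signal bin in black. The black line is higher at bright than at dim signals on all 4 arrays, with a drop at the brightest bin at E16, and at signals of 13 and more the red points lie around it at E11 and E12 and mostly above it at E16 and E18.

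Set against genes of like brightness, the later stages still stood higher. At a log2 signal of 14 or more the 62 members had medians of -0.11, -0.04, 0.22 and 0.21 after loess, against -0.07, 0.01, 0.03 and -0.16 for the 141 others. The 18 dimmer members had 0.14, 0.01, 0.25 and 0.39. The median of all 80 members, the 18 dimmer ones included, minus that of the bright other genes was -0.01, -0.02, 0.19 and 0.39. Under 7 other ways of processing, including median centring in place of loess, this difference lay between 0.17 and 0.20 at E16 and between 0.29 and 0.40 at E18, and between -0.08 and 0.01 at E11. With median centring both groups moved together, to 1.57 and 1.36 at E16. The narrow range over ways of processing is thus not separate support for the difference, and no test was made of it.

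Some members kept apart from E14 at every stage. Rpl5, which carries 5S rRNA into the large subunit and binds Mdm2 when ribosome assembly is disturbed, had log2 ratios of 0.57, 0.47, 0.72 and 0.69 at E11, E12, E16 and E18. Rpl9, a large subunit protein near the base of the stalk, had 0.54, 0.55, 0.82 and 0.75. Rps7, needed for processing of the small subunit's rRNA, had 0.54, 0.36, 1.02 and 0.68, so that E16 was 2.03-fold above E14. These 3 of the 80 members were at least 0.32 (log2) above E14 on all 4 arrays, where 3.20% of all genes were. The members' share is near that of all genes, so the pattern does not set the family apart. Since E14 was labelled with Cy3 on every array and no dyes were swapped, a low level at E14 and a dye effect of a probe cannot be told apart. In all, 22 members were above E14 on all 4 arrays (21.5% of all genes were), among them Rpl31, the highest member at E11, with 0.59, 0.12, 0.40 and 0.72, and Rps27a, a ubiquitin fusion, with 0.36, 0.18, 0.72 and 0.48.

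The opposite pattern was rarer. Rpl13, Rpl35, Rpl36 and Rps2 were below E14 on all 4 arrays (21.8% of all genes were). Rpl36, a large subunit protein, had -0.52, -0.35, -0.13 and -0.24, and Rps2, a protein at the mRNA entry, had -0.44, -0.11, 0.00 and -0.53. Below E14 at E11 and E12 and above it at E16 and E18 were 22 members, 12 large and 10 small (11.5% of all genes), and the reverse order was found in 0 (9.12% of all genes). At the lower end of the slopes, besides Rpl21, were Rps3, Rpl14 and Rpl7a. Rps3, a small subunit protein also known in DNA repair, had 0.21, 0.16, 0.28 and -0.18. A second, dimmer Rps3 probe, with a mean signal of 7845, gave 0.00, 0.10, 0.30 and 0.35, so the probes disagree on direction at E18. Rpl14 had 0.22, 0.12, 0.05 and -0.03, and Rpl7a had 0.23, 0.00, 0.05 and -0.07. None of these 3 passed the test.

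Further members known from disease, patterning or signalling gave mixed values. Rpl38, whose loss in mice disturbs axial patterning and Hox mRNA translation, had -0.33, -0.32, 0.23 and 0.25. Rpl11, the partner of Rpl5 at 5S rRNA, had 0.19, -0.03, 0.16 and 0.30. Rps19, the gene most often mutated in human Diamond-Blackfan anaemia, had -0.35, -0.17, 0.07 and -0.07. Rps6, the substrate of S6 kinase, had 0.22, 0.10, 0.48 and 0.66. Rpsa, whose human gene is mutated in congenital lack of a spleen, had -0.25, -0.11, 0.12 and 0.11. Rpl10, a late joining protein, had -0.25, -0.14, 0.05 and 0.07, Rpl3 had -0.10, 0.13, 0.16 and -0.02, and the X-linked Rps4x had 0.18, -0.07, 0.35 and 0.37. Rplp2, the partner of Rplp1 in the stalk, had -0.36, -0.01, 0.13 and -0.23. Its value fell back at E18 where that of Rplp1 was 0.42. Rps15 and Rps16, named as low at one stage, had -0.35, -0.41, -0.14 and 0.01 and -0.49, -0.06, 0.17 and -0.18.

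A further 43 members, outside the rule for naming genes, ran from -0.44 to 0.40 at E11, from -0.41 to 0.35 at E12, from -0.03 to 0.64 at E16 and from -0.29 to 0.71 on the E18 array. Both later arrays were above both earlier ones in 39 of them, where 30.8% of all genes were.

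Rplp0, the base of the stalk, was read by a probe of doubtful placement. The probe the rule takes was spotted 10 times per array, with an SD between spots of 0.033 to 0.049, and gave -0.37, -0.19, 0.26 and -0.10. The files place it at chr8:101459316-101459375 (mm7), while the gene lies on chromosome 5. It was the 1 probe of 132 with a coordinate that lay on another chromosome than its gene. Another 2 probes, under the older name Arbp and outside the rule, carry the gene's RefSeq mRNA and lie on chromosome 5. They gave -0.45, -0.26, 0.29 and 0.13, and -0.24, 0.12, 0.42 and 0.12. All 3 were below E14 at E11 and above it at E16.

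Close relatives within the family differed from each other. Rpl22l1, a paralog of Rpl22, had -0.18, -0.47, 0.43 and 0.41, while Rpl22, which binds RNAs outside the ribosome too, had 0.19, 0.08, 0.35 and 0.48. Rpl22l1 was below E14 at the earlier stages where Rpl22 was above it. Rps27l, a p53-responsive paralog of Rps27, had 0.18, -0.07, 0.37 and 0.77, the highest but 1 of all small subunit genes at E18. Rpl7l1, a paralog of Rpl7, had 0.21, -0.01, 0.03 and -0.05. Rpl3l, a muscle paralog of Rpl3, was not well above background in E14 on any array and in Cy5 on 1 array only, so its values of 0.02, -0.02, 0.08 and 0.06 say little. None of the 4 passed the trend test. Probe letters were not used here, so how far a probe reads its gene's relative could not be checked.

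Rpl39l, a paralog of Rpl39 used in testis, lies outside the rule because the array names it by a clone, 4930517K11Rik. Its brighter probe gave -0.20, -0.16, 1.19 and 2.09, and it rose by 0.334 ± 0.027 per day (limma, adjusted p = 0.00548). The signal was dim: it exceeded background clearly in Cy5 on 2 arrays and in E14 on 3. A second, dimmer probe gave 0.11, 0.05, 0.19 and 0.52.

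For 38 members more than 1 probe was measured. In 25 genes with at least 2 probes of a mean signal of 500 or more, the gap between probes on an array had a median of 0.12 (log2). The widest gap among them was 0.96, in Rps19 at E18, where the brighter probe gave -0.07 and a dimmer one 0.89. Rpl21, a large subunit protein with many processed pseudogenes, showed the widest gap of all, 1.64 at E18. Both of its probes were dim for this family, with mean signals of 1869 and 233. The brighter probe, at chr5:145727505-145727564 (mm7) and annotated to a predicted transcript, gave -0.12, 0.32, -0.51 and -1.21. The dimmer probe, at chr5:145731095-145731154 and annotated to the gene's RefSeq mRNA, gave 0.27, 0.17, 0.41 and 0.43. The low values of Rpl21 thus rest on 1 probe of 2, which disagree on direction at E11, E16 and E18. For Rpl11 and Rps13 the gaps of 1.36 and 0.95 were to probes with mean signals of 169 and 132, beside 81818 and 56968 for the probes used. For Rps24 the gap of 1.27 lay between a pair of dim probes, neither of them the one used. Ribosomal protein genes have many processed pseudogenes, and a probe's signal from such a copy cannot be told apart from the gene's.

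Other genes of the translation machinery gave other values. Of 44 ribosome biogenesis genes, the limma trend called 0 as rising and 0 as falling (1 and 9 at an unadjusted p under 0.05), and the median was 0.11, 0.03, -0.16 and -0.10 at E11, E12, E16 and E18. Both later arrays were below both earlier ones in 30 of the 44 and above in 5. Tcof1, which promotes rRNA gene transcription, had -0.56, -0.10, -0.93 and -1.33, and Polr1a, the largest RNA polymerase I subunit, had -0.53, 0.02, -0.83 and -0.95. At the other end Polr1d had 0.42, 0.17, 0.75 and 0.94. The 78 mitochondrial ribosomal proteins had medians of 0.32, 0.12, 0.09 and 0.18, with 0 calls either way (3 rising and 1 falling unadjusted). In this list both later arrays were above both earlier ones in 14 and below in 23. Among 21 other genes of translation elongation or with TOP mRNAs, the medians were 0.10, 0.19, 0.19 and 0.02, with 0 calls (1 rising and 4 falling unadjusted). Tpt1, a TOP mRNA, had 0.19, 0.09, 0.87 and 0.90 and Nap1l1 had 0.53, 0.41, -0.24 and -0.10. The 34 initiation factors had 0.08, 0.12, 0.02 and -0.15, with 0 calls (0 rising and 5 falling unadjusted), and the lowest slope was that of Eif3a.

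Among 22 growth control genes 2 rose and 0 fell. Myc, which drives transcription of ribosomal genes, rose (-1.53, -0.60, 0.05 and 0.29, limma adjusted p = 0.0352), as did the cell cycle inhibitor Cdkn1a (-1.89, -1.86, 0.29 and 0.35). Mycn, the related factor, had 1.60, 0.85, 0.45 and 0.45. Of 22 bright housekeeping genes 4 rose and 1 fell: Aldoa, a glycolytic enzyme, had -1.02, -0.87, 0.24 and 0.29, and Tubb5, a tubulin, had -0.36, -0.15, -0.95 and -1.23. Marker lists of cell types moved over the same arrays. The medians of 11 dental epithelium markers were -1.21, -0.60, 1.09 and 0.56 (6 rose, 1 fell), of 12 dental mesenchyme markers 0.06, 0.00, -0.50 and -1.92 (0 rose, 8 fell) and of 12 erythroid markers 0.62, 0.14, -0.71 and -0.62 (0 rose, 4 fell). Shh, a signal of the dental epithelium, had -0.91, -0.77, 2.27 and 4.03, Prrx1 of the mesenchyme had 0.01, -0.02, -2.72 and -3.92, and the embryonic globin Hbb-bh1 had 4.49, 2.93, -3.79 and -3.97. Both later arrays were above both earlier ones in 9 epithelium, 1 mesenchyme and 1 erythroid markers, and below in 1, 8 and 8. Against their lists went Cldn7 of the epithelium (0.82, 0.87, 0.37 and -0.35), Col1a1 of the mesenchyme (-3.51, -2.28, -0.41 and -1.74) and the globin Hba-a1 (-1.37, -1.64, -0.85 and -0.64). The 21 cell division genes had 0.48, 0.26, -0.40 and -0.25 (0 rose, 1 fell). The part of these changes in the ribosomal protein values was not tested.

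**Figure D5:**
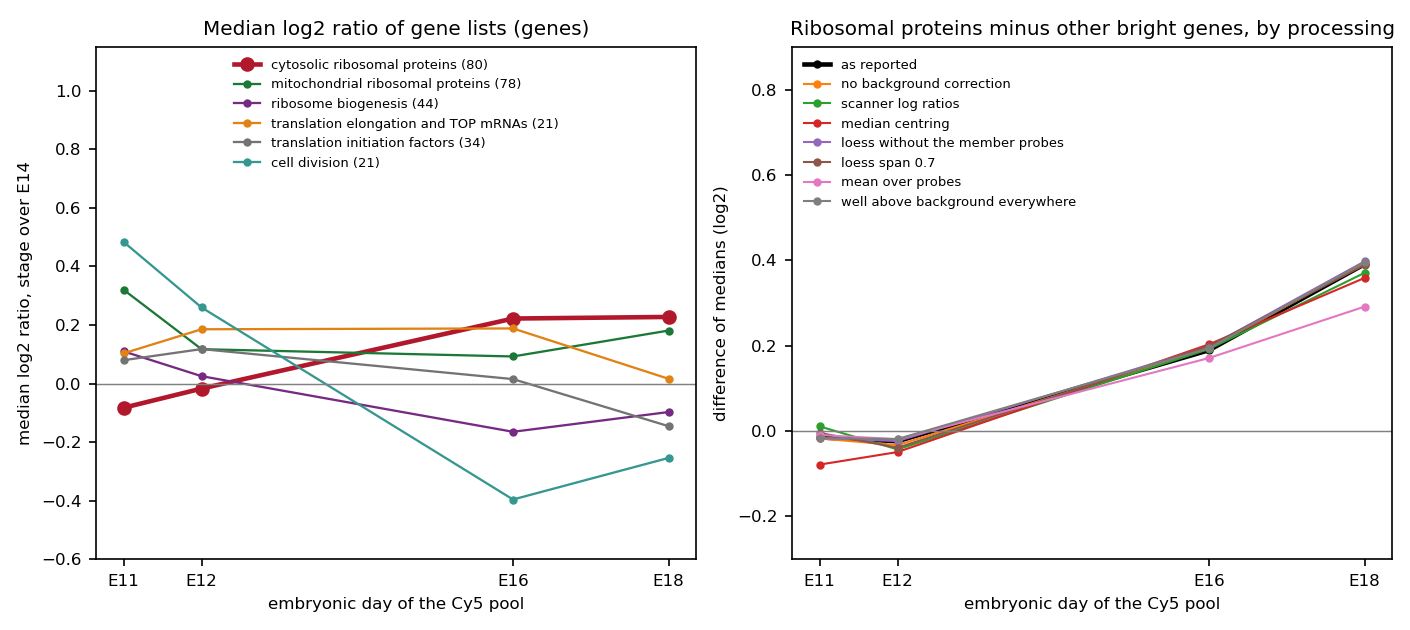
Left, median log2 ratio over E14 of the 80 ribosomal protein genes and of 5 other gene lists by embryonic day. Right, the median of the ribosomal proteins minus that of 141 other bright genes under 8 ways of processing (1 as reported, in black), which reached 0.29 to 0.40 at E18.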

How the data were processed

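Per the labels' protocols, pooled molar germs gave Trizol RNA, with E14 in Cy3 and the other stage in Cy5. Per the file headers, Agilent Feature Extraction 10.5.1.1 made the scanner files, whose coordinates are build mm7. The deposited scanner files hold linear intensity per spot, and their log10 ratio (LogRatio) equals the deposited series table on 100% of probes, with column medians of 0.

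Mean signals were corrected with normexp (offset 50) and each array normalized by loess (span 0.3) in limma 3.58.1, R 4.3.3. Controls and outlier spots (92 to 126 per array) were left out. A gene took its brightest probe, and was measured where the scanner marked that probe well above background on 1 array or more (Cy5), or on 2 or more (Cy3). Normexp pulls dim ratios towards 0. The trend used lmFit and eBayes with an intensity trend and Benjamini-Hochberg adjustment over 17398 genes (threshold 0.05), and was checked on simulated data. Named genes were a fixed set, the paralogs, the 3 highest and lowest per array, the 5 largest and smallest slopes, probe gaps, subunit extremes and list ends; 1 member that they name is counted but not reported singly here. Members and lists were chosen with earlier results of these data known. Array number limits precision. Alternatives covered background, ratio source, normalization, probes, dim genes, slide and single arrays.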

Additional observations from a re-analysis of the deposited data

How the results depend on the processing

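No paired analysis was possible because each stage is 1 array. Of 117 recomputed summary values 94 stayed within 1 E14 SD (0.10) or within 1.5 times the count. With the scanner's own log ratios the member median was 0.16 for E16 over E12 and 0.16 for E18 over E11. With median centring in place of loess the member medians were 1.48, 1.56, 1.57 and 1.27 at E11, E12, E16 and E18, where the all-gene medians shifted to 0.40, 0.64, 0.57 and 0.17 and other bright genes to 1.56, 1.61, 1.36 and 0.91. Large minus small was then -0.16, -0.12 and -0.087 at E11, E12 and E18. E16 over E12 was -0.00057, E18 over E16 -0.31 and E18 over E11 -0.31. Both later arrays were above both earlier ones in 8 members (18.9% of all genes) and below both in 25. These counts were added after the values were seen. Rising calls made up 40.5% of all trend calls, against 70.3% as reported. With a loess span of 0.7 the E12 median was -0.18, and with the mean over probes large minus small at E16 was 0.0055.

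Members rising numbered 1 without background correction (1210 of all 17398 genes), 0 with median centring (505) and 0 with slide as a block (0). They numbered 2 without the intensity trend in eBayes (807) and 0 to 5 when 1 array was left out (141 to 1630). Members falling numbered 1 with median centring (Rpl21, 741 of all genes) and 0 to 1 when 1 array was left out (60 to 756 of all genes). With slide as a block the slopes of Rplp1 and Rps27 were -0.012 and -0.013. The Rps3 slope was 0.0056 with the mean over probes, and when 1 array was left out it ran from -0.057 to 0.017. The cause was not tested.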
